A study of Mus musculus with 6 samples.

Results

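Interferon-stimulated genes, 43 of the 14016 rows in the deposited table, were described in injured mouse muscle. They are genes known to respond to type I or type II interferon together with their transcription factors, chosen by symbol, and 43 of 43 were listed. Bulk RNA sequencing measured polyadenylated RNA of quadriceps muscle 7 days after volumetric muscle loss, an injury in which a piece of the muscle is cut out, in mice that received saline and no implant. The groups were 3 WT mice and 3 GATA-1 mutant mice, the ΔdblGATA line, in which loss of a GATA-binding site in a Gata1 promoter leaves the animals without eosinophils. The WT mice of the study were young adult C57BL/6 females, and the age and background of the mutant mice are not given in the sources used here. The question behind the design was how injured muscle differs when eosinophils are missing.

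The values used here are the authors' mean log2 CPM of each gene (reads scaled to the size of the library) over the samples of their fit, taken to be these 6. No value per mouse was analysed, so WT and GATA-1 mutant mice were not compared, no level has a standard deviation, and the depth of each sample is unknown. A level below is therefore that of the mixed tissue of both genotypes. In such bulk tissue, fewer cells of a type and less RNA per cell cannot be told apart.

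Interferons signal through paired receptors to Janus kinases, which activate STAT proteins. Type I interferon drives a complex with STAT2 and IRF9 that binds the interferon-stimulated response element (ISRE), and type II interferon acts largely through the gamma-activated sequence (GAS). The proteins made in response sense viral nucleic acid, cut or edit RNA, block entry and budding of viruses, and attack the vacuoles in which microbes live. In sterile tissue damage, nucleic acid from dying cells can feed the same sensors.

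The ISRE core was searched as GAAANNGAAA on either strand, which reads TTTCNNTTTC on the other, and the GAS as TTCNNNGAA, which reads the same on both strands. The windows were RefSeq promoters of GRCm38.p6, 250 bases before to 50 bases after each annotated start, and 34 of the 43 genes had one. Below are the 160 bases before the start of members in which a motif match is seen, with every matched base in capitals, so that overlapping matches form 1 run. They were picked after the matches were known, to cover the roles of the genes. The first set holds antiviral effectors, and apart from the GAS of Oas1a and Bst2 its capitals are ISRE cores. They lie at Isg15 chr4:156200819-156200978 (minus strand), Ifit1 chr19:34640729-34640888 (plus strand), Ifit3 chr19:34583369-34583528 (plus strand), Rsad2 chr12:26456453-26456612 (minus strand), Oas1a chr5:120907526-120907685 (minus strand) and Bst2 chr8:71537473-71537632 (minus strand).
Isg15: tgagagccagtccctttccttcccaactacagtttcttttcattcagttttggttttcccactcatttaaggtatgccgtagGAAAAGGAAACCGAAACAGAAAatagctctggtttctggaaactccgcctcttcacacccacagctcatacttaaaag
Ifit1: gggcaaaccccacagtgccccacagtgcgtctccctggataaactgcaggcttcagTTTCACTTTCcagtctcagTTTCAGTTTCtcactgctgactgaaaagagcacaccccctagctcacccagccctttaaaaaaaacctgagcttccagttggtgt
Ifit3: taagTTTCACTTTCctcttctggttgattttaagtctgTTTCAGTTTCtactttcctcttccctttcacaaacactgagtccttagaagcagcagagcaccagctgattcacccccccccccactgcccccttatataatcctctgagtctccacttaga
Rsad2: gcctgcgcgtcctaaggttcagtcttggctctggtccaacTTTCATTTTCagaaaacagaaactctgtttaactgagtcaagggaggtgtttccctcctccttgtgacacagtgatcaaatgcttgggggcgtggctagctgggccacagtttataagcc
Oas1a: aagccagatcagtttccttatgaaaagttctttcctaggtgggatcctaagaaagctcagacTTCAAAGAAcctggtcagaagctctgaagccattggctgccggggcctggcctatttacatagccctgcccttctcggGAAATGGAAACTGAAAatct
Bst2: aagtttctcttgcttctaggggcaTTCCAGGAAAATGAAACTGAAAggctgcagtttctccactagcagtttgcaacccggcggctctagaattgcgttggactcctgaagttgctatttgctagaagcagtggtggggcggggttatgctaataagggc

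In Isg15, 3 ISRE cores overlapped between 78 and 57 bases before the start. Ifit1 and Ifit3 each held 2 separate cores, and Rsad2 held 1. Bst2 was the one of these 6 in which a GAS and an ISRE core shared bases.

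The second set holds the transcription factor gene Irf1, whose only match was a GAS, and genes of guanylate-binding and immunity-related GTPases. The stretches lie at Irf1 chr11:53769854-53770013 (plus strand), Gbp3 chr3:142559884-142560043 (plus strand), Gbp7 chr3:142530176-142530335 (plus strand), Igtp chr11:58199396-58199555 (plus strand), Irgm2 chr11:58214817-58214976 (plus strand) and Tgtp1 chr11:48992247-48992406 (minus strand).
Irf1: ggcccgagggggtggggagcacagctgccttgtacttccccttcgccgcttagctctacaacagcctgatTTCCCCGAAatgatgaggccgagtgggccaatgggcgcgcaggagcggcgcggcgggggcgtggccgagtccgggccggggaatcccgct
Gbp3: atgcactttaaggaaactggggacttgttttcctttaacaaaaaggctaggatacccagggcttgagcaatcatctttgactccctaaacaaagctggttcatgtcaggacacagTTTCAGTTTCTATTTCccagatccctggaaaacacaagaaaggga
Gbp7: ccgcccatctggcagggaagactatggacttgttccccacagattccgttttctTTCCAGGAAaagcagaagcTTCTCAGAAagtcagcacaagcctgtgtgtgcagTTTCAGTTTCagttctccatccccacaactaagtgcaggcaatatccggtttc
Igtp: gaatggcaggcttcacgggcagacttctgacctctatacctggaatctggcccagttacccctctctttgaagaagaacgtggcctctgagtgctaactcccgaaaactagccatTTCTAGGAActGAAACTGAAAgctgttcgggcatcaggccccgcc
Irgm2: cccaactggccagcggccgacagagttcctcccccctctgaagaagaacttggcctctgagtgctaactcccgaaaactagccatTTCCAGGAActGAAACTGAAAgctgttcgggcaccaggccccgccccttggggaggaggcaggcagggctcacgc
Tgtp1: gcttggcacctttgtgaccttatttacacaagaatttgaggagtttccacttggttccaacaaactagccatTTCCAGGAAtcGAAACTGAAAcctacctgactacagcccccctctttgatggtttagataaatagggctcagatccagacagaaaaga

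In Igtp, Irgm2 and Tgtp1 the GAS starts 11 bases before a forward ISRE core, so that both fit in 21 bases. Among the 10365 listed genes with a window, this arrangement was found in 5. The other two were Tgtp2 and Gm12185, which are no members, and Gm12185 overlaps Tgtp1 on the same strand. The spacing was noticed in these sequences and then counted. In the lines below, the capitals are the GAS and the ISRE core and the lower case is the gap between them.
Igtp: TTCTAGGAActGAAACTGAAA
Irgm2: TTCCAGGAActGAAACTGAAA
Tgtp1: TTCCAGGAAtcGAAACTGAAA
Tgtp2: TTCCAGGAAtcGAAACCGAAA
Gm12185: TTCCAGGAAtaGAAAGTGAAA

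Lined up on the GAS without gaps, the Igtp and Irgm2 stretches were identical at 97 of 105 bases (92.4%), with an unbroken shared run of 38 bases. Igtp and Tgtp1 shared 53 of 105 bases (50.5%), and Irgm2 and Tgtp1 shared 56 of 120 (46.7%).

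The levels of the 43 genes spanned the middle of the table. Their median mean log2 CPM was 4.08, beside 4.03 over all 14016 rows, and the members ran from 1.06 for Mx2 to 6.58 for Ifi27. Of the 43, 24 lay above the median of all rows, 7 above the upper quartile, 4 below the lower quartile and 32 between them. The median member stood at the 51.2 percentile.

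**Figure D1:**
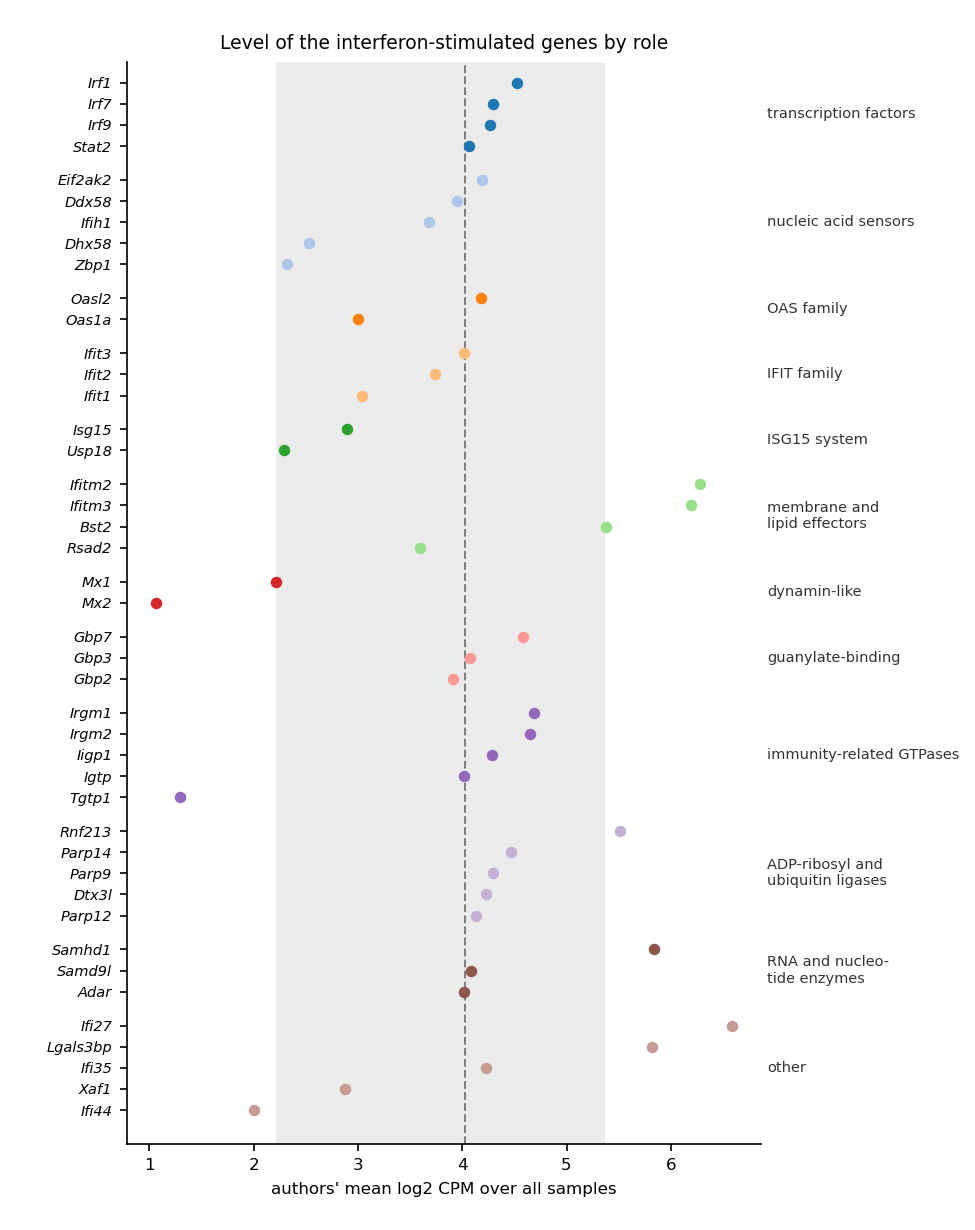
Each point is the authors' mean log2 CPM of 1 gene over all samples, grouped by role. The dashed line is the median of all listed genes (4.03) and the grey band runs from their lower to their upper quartile (2.23 to 5.36). Ifi27, Ifitm2, Ifitm3, Samhd1, Lgals3bp, Rnf213 and Bst2 lie to the right of the band.

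CPM grows with transcript length, so for comparisons between genes log2 of the length in kb was subtracted (log2 CPM per kb), with the longest coding transcript of GENCODE M21 (GRCm38). On this scale the median of the members was 2.09, beside 2.27 over the 13938 genes with a length, at the 46.8 percentile. Again 7 genes lay above the upper quartile and 4 below the lower one. Rnf213, a giant ubiquitin ligase with a transcript of 16716 bases, moved from place 6 of 43 by level to place 36 per kb. Isg15, with 756 bases, moved from place 35 to place 10.

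**Figure D2:**
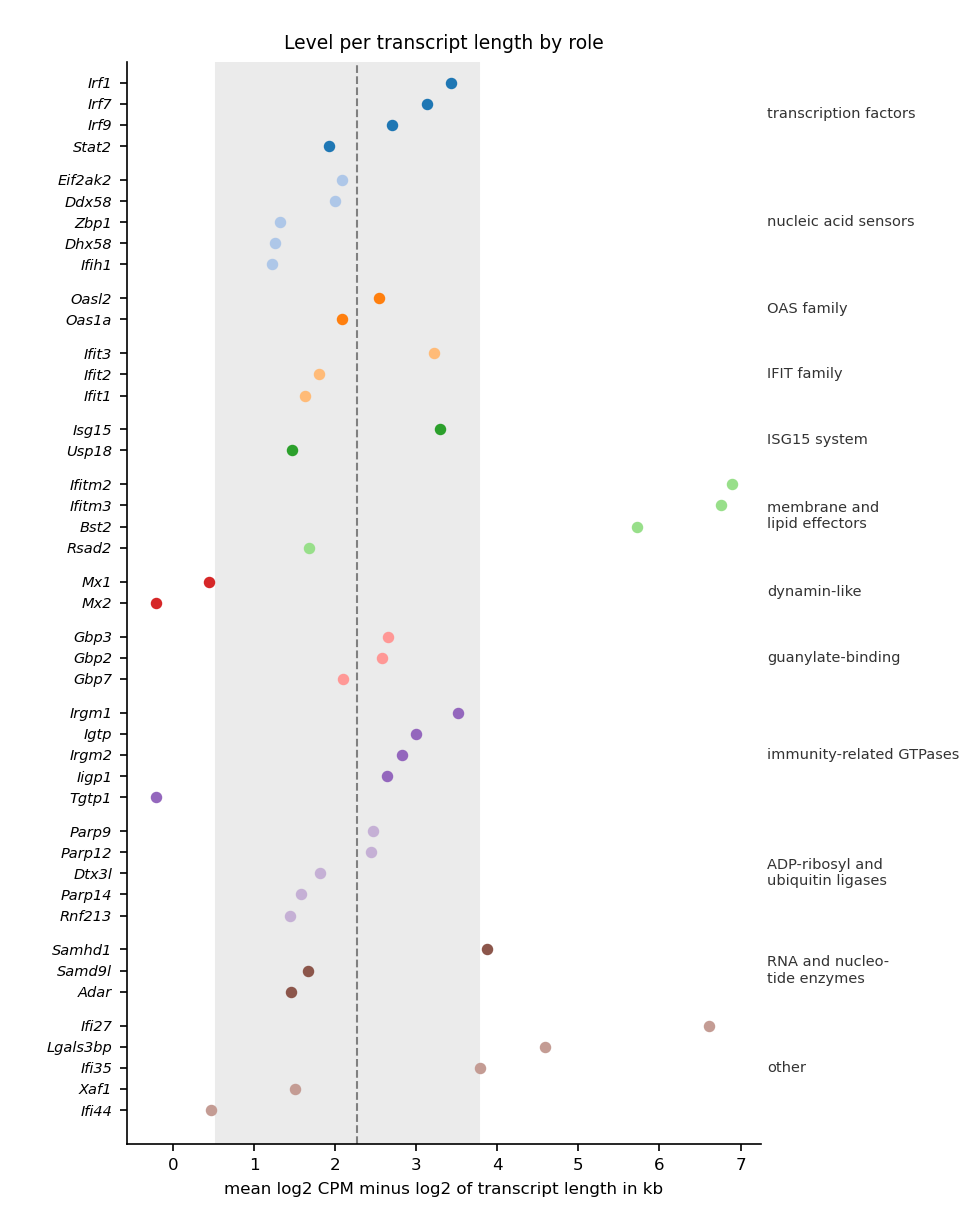
Each point is the mean log2 CPM of 1 gene minus log2 of its transcript length in kb, grouped by role. The dashed line is the median of all listed genes with a length (2.27) and the grey band their quartiles (0.53 to 3.78). Ifitm2, Ifitm3, Ifi27 and Bst2 lie farthest right, and Mx2 and Tgtp1 farthest left.

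Among transcription factors, per kb, Irf1 was highest. Irf1, which responds to both kinds of interferon, stood at 3.43 log2 CPM per kb, and Irf7, which amplifies interferon production, at 3.13. Irf9, the DNA-binding part of the ISRE complex, stood at 2.70, and its partner Stat2 at 1.93. Before division by length these 4 genes were within 4.06 to 4.52 log2 CPM.

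The nucleic acid sensors were all under the median of all genes per kb of the longest transcript. With the coding length instead, Eif2ak2 stood at the 51.8 percentile, and the other sensors stayed under the median. Eif2ak2, the kinase PKR that halts translation on double-stranded RNA, stood at 2.08 log2 CPM per kb. Ddx58, which encodes RIG-I, stood at 1.99, Zbp1, a sensor of Z-form nucleic acid that starts necroptosis, at 1.33, Dhx58 at 1.26 and Ifih1, which encodes MDA5, at 1.23. The RIG-I-like receptor genes Ddx58, Ifih1 and Dhx58 were all listed.

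The 2 highest values per kb were those of membrane effectors. Ifitm2 and Ifitm3, small membrane proteins that block fusion of viruses, stood at 6.89 and 6.76 log2 CPM per kb, at the 96.8 and 96.5 percentiles. Bst2, or tetherin, which holds budding virions at the surface, stood at 5.72. Rsad2, or viperin, an enzyme that makes a chain-terminating nucleotide, stood far lower at 1.67. Bst2 also marks plasmacytoid dendritic cells, whose other marker here, Siglech, was at -1.01 log2 CPM per kb.

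Oasl2 stood at 2.54 and Oas1a, which makes the 2-5A messenger that activates RNase L, at 2.08 log2 CPM per kb. In the IFIT family, whose proteins bind foreign RNA, Ifit3 stood at 3.22, Ifit2 at 1.81 and Ifit1 at 1.63. Isg15, a ubiquitin-like modifier, was at 3.30 and Usp18, the protease that removes it, at 1.47. Mx1 and Mx2, dynamin-like GTPases, were at 0.45 and -0.21, and RefSeq classes both as transcribed pseudogenes in the GRCm38 reference.

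Of the 5 immunity-related GTPase genes, 4 lay above the median of all genes per kb. Irgm1 stood at 3.51, Igtp at 3.00, Irgm2 at 2.83 and Iigp1 at 2.64 log2 CPM per kb. Tgtp1 stood at -0.21, but 94.2% of its 31-base words also occur in transcripts of other genes, mostly Tgtp2, so that its level depends on how reads were divided. The guanylate-binding protein genes, whose products coat and break pathogen vacuoles, were close together, with Gbp3 at 2.66, Gbp2 at 2.58 and Gbp7 at 2.09.

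In the ADP-ribosyl and ubiquitin ligase group, Parp9 (2.47) and Parp12 (2.44) were nearly level per kb. Dtx3l, the ubiquitin ligase that pairs with PARP9, stood at 1.81, Parp14 at 1.58 and Rnf213 at 1.45. Samhd1, which removes deoxynucleotides needed for reverse transcription, stood at 3.87, Samd9l at 1.67 and the RNA editing gene Adar at 1.45. Of the remaining genes, Ifi27 stood at 6.62, Lgals3bp, a secreted glycoprotein, at 4.59, Ifi35 at 3.78, Xaf1 at 1.50 and Ifi44 at 0.47 log2 CPM per kb.

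The families of these genes were chosen by symbol, and their other listed genes were set beside the members. Per kb, the 3 GBP members (2.09 to 2.66) lay above the other 4 GBP genes, of which Gbp9 was highest at 1.30 and Gbp4 lowest at -3.78. The OAS members (2.08 and 2.54) lay above the other 6 OAS genes, led by Oas2 at 0.80. Ifitm2 and Ifitm3 lay above Ifitm1 (0.12), Ifitm10 (0.04) and Ifitm6 (-0.26). Members had been chosen with results of these data known, so their place in a family is a description.

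**Figure D3:**
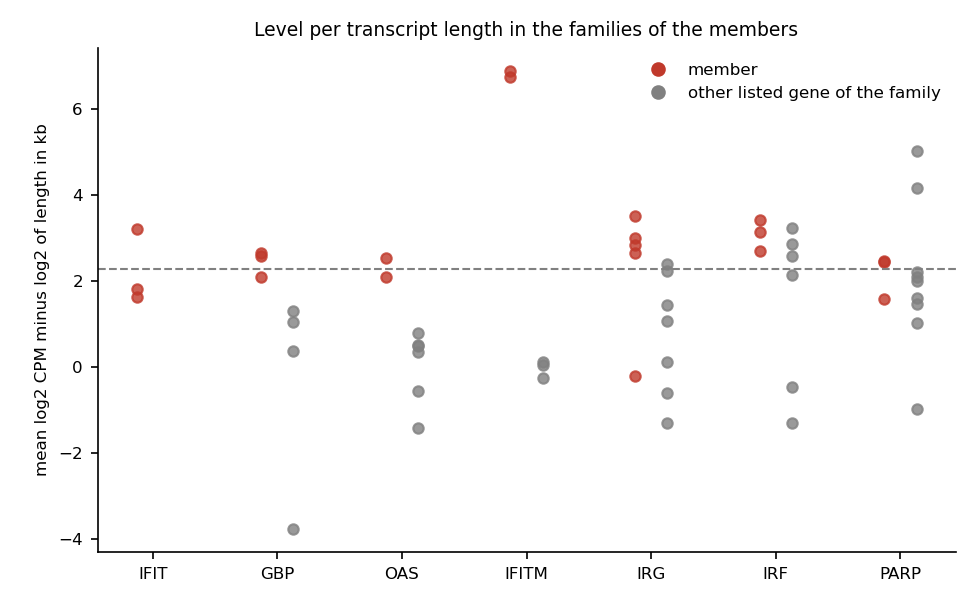
Points are genes, placed by mean log2 CPM minus log2 of transcript length in kb, with members in red and other listed genes of the same family in grey. The dashed line is the median of all listed genes (2.27). Members lie above the other genes in the GBP, OAS and IFITM families and among them in the IRF and PARP families. In the IRG family all members but Tgtp1 lie above the other genes plotted. The choice by symbol left out the listed genes Gm12185, which overlaps Tgtp1, and Gm4951, which shares words with Iigp1.

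Of 25 further genes of the interferon pathway, looked up by exact symbol only, 23 were listed, and the ligand genes Ifnb1 and Ifng were not. Among the receptor genes, Ifngr1 stood at 4.47 and Ifngr2 at 4.29 log2 CPM per kb, and Ifnar2 at 3.13 and Ifnar1 at 3.05. Jak1, the kinase that both receptors use, was highest of the list at 4.86. Jak2 stood at 2.69, and Tyk2, the kinase of the type I receptor, at -4.84, the 0.273 percentile. The mean log2 CPM of Tyk2, -2.56, lies under the minimum that at least 3 samples had to pass. Its samples must therefore differ, and this mean need not be the level of any mouse. The same holds for Gbp4, with a mean log2 CPM of -1.59, for Ifitm6 (-0.56) and for the 4 T and NK cell markers below (-0.99 to -0.42). Ifitm1 (-0.06) lies only just under the minimum. The feedback inhibitors Socs3 and Socs1 stood at 2.58 and -0.30. Of upstream sensors and adaptors, Mavs stood at 3.57, Tmem173, which encodes STING, at 1.50, Mb21d1, which encodes cGAS, at -0.72 and Tlr3 at -1.02.

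The tissue label was checked by marker genes. All 5 skeletal muscle markers were listed, at 5.92 (Ttn) to 13.8 (Acta1) log2 CPM per kb. Of 5 macrophage markers 4 were listed, at 3.30 (Mrc1) to 8.72 (Lyz2), without Adgre1. None of 5 eosinophil markers was listed, and the 4 T and NK cell markers lay between -2.38 (Klrb1c) and -0.63 (Nkg7). Markers were looked up by exact symbol only, so one held under another symbol would count as not listed. The authors also dropped genes under a minimum CPM, so an unlisted marker is not shown to be absent. How much each cell type gave to the levels of the 43 genes was not tested.

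Before the start, 15 of 34 members (44.1%, 95% Wilson interval 28.9 to 60.5%) held an ISRE core, and so did 3.24% of the 10365 listed genes with a window. A GAS was found in 10 of 34 (29.4%, 16.8 to 46.2%), beside 7.23%. Both motifs were found in 6 members, Bst2, Gbp7, Igtp, Irgm2, Oas1a and Tgtp1, which is 17.6% beside 0.425% of listed genes. At least 2 ISRE cores were found in 7 members (20.6%), beside 0.347%, with overlapping matches counted as separate cores in both. All these counts pool the windows of a gene, and the 34 members had 40 windows. A core that lies in 2 shifted windows of a gene would therefore count as 2. For Irgm1, whose stretch is not shown, this was not checked. In Bst2, Gbp3, Irgm1, Isg15 and Oas1a the cores lay at overlapping positions, and only Ifit1 and Ifit3 held separate ones. The intervals cover counting error only, and neighbouring genes of 1 family share sequence, so members are not independent of each other. Median GC content before the start, by the highest window of each gene, was 52.6% in members and 60.8% over all listed genes. The shares were not matched for it. Members were chosen as genes known to respond to interferon, so a higher share can come from that choice. The sequences are those of the reference and not of these samples.

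**Figure D4:**
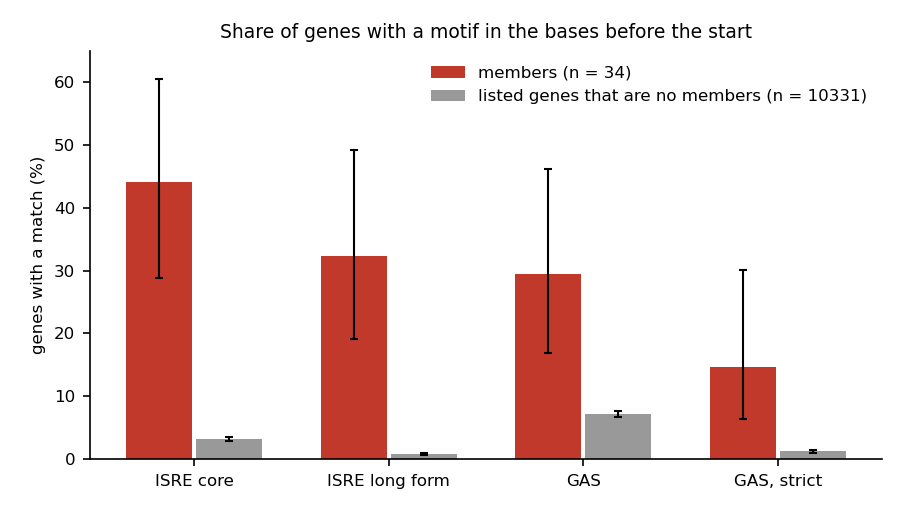
Bars are the percent of genes with a match in the 250 bases before the start, for 34 members (red) and 10331 other listed genes (grey), and lines are 95% Wilson intervals. The long ISRE form has C after the second GAAA and the strict GAS form is TTCCNGGAA, and for all 4 patterns the red bar is the taller one.

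ISRE cores of members lay close to the start. In members, the nearest ISRE core over all windows of a gene began at a median of 64 bases before the start. In 14 of 15 it began within 130 bases. In other listed genes with a core the median was 146 bases, and 44.5% began within 130. The exception among members was Stat2, at 222 bases. For the GAS, the member median was 94 bases, beside 129 in other listed genes, and 6 of 10 members began within 130 bases, beside 50.7%. The GAS of Bst2, Eif2ak2, Samhd1 and Ifit2 lay farther away.

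**Figure D5:**
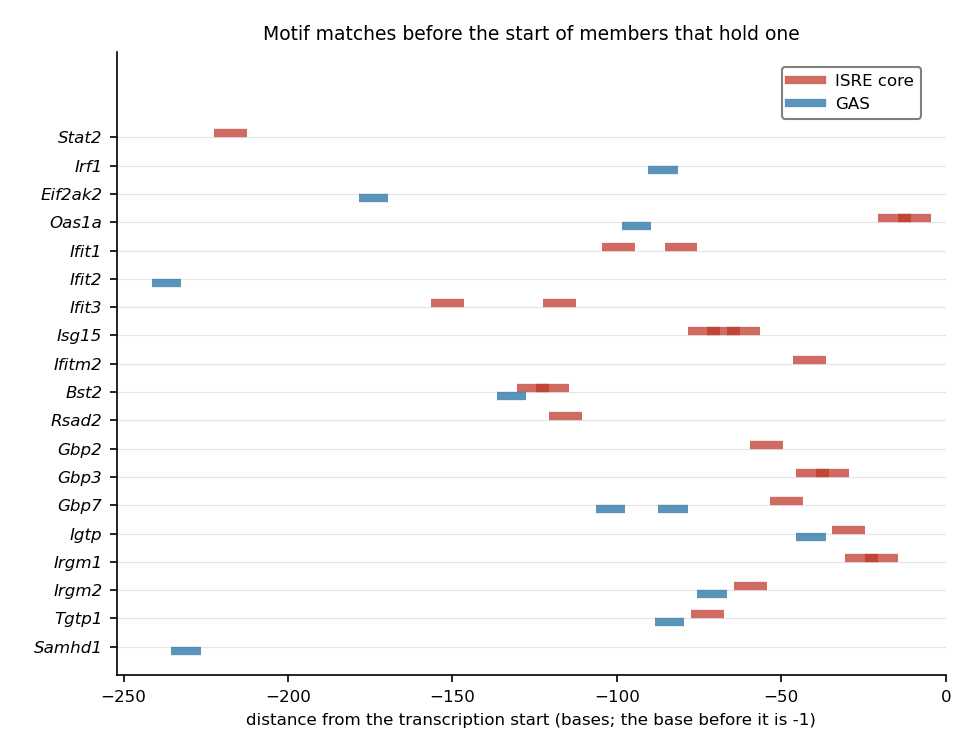
Each line is a member with a match, and bars mark the bases of ISRE cores (red) and GAS (blue) by distance from the transcription start. Igtp, Irgm2 and Tgtp1 show a blue bar just before a red one, and in Stat2, Ifit2 and Samhd1 the only match lies in the far left of the window.

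Neither motif was found in the 250 bases before the start of 15 members, which says only that these letters are not in that stretch. Over the whole window, with the 50 bases after the start, 19 members held an ISRE core and 13 a GAS. Mx1, Mx2, Zbp1, Iigp1, Parp14, Dhx58, Usp18, Parp9 and Ifi27 had no window. Members with an ISRE core had a median of 2.66 log2 CPM per kb (n = 15) and those without one 2.08 (n = 19), but the order turned without division by length, with medians of 4.02 and 4.19 log2 CPM.

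The windows of members were poor in CpG. Where a gene had several windows, the highest ratio of observed to expected CpG before the start was taken. The median ratio was 0.374 in members, beside 0.740 over all listed genes, and 9 of 34 (26.5%) were above 0.6, beside 68.0%. Of members with an ISRE core 1 of 15 was above 0.6, and of those without one 8 of 19.

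Several members are neighbours. In GRCm38, 15 of the 43 genes had another member within 100 kb, in 12 pairs, and 10 members were on chromosome 11. Ifit1, Ifit2 and Ifit3 form a cluster on chromosome 19, Gbp2, Gbp3 and Gbp7 on chromosome 3, and Parp14, Dtx3l and Parp9 on chromosome 16. Igtp and Irgm2 overlap on the same strand and Dtx3l and Parp9 on opposite strands, and whether reads were counted by strand is not given in the sources used here.

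Shared sequence limits how well some levels can be assigned. Beyond Tgtp1, 68.8% of the 31-base words of Oas1a occur in other genes, mostly Oas1g, 61.8% of those of Ifit3 occur in Ifit3b, and 55.5% of those of Ifitm2 occur in other genes, Gm45717 the foremost. The levels of these 4 genes are uncertain. Of the 43 members, 15 shared more than 10% of their words and 9 shared none, among them Bst2, Ifi27, Lgals3bp, Stat2 and Ifih1.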

How the data were processed

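RNA of quadriceps from 3 WT and 3 GATA-1 mutant mice was sequenced at day 7 after injury. The authors selected polyadenylated RNA with an ERCC spike-in, assigned paired-end reads with kallisto, named genes with ensembldb, computed CPM with edgeR, dropped genes that fewer than 3 samples held above a minimum CPM, took logs, applied TMM normalization and fitted limma. The log2 values used here are the mean log2 CPM per gene that the authors deposited. The other columns hold the authors' own comparison of the genotypes (a fold change, a test statistic, p-values before and after adjustment, and log odds) and were not used. The planned limma test needs values per mouse and was not run. The submitters' processing notes name GRCm39 (mm39), while lengths, positions and windows here are of GRCm38, and no coordinate was converted.

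Of 14016 rows, 1 had no symbol, 13458 matched GENCODE M21 directly and 480 by an older symbol, so that 99.4% had a length. Motif search was tested on simulated sequences. Words of 31 bases were compared with all GENCODE transcripts. Python 3.11.15, pandas 2.3.3, numpy 2.4.6 and scipy 1.17.1 were used. All 43 members are named, by role. A gene of the pathway list and its family are not reported here. The members and lists were chosen with earlier results of these data known, and families, distances, CpG and the motif spacing were added after the data had been seen. The alternatives were other symbols, minimum levels, backgrounds, lengths and motif forms.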

Additional observations from a re-analysis of the deposited data

How the results depend on the processing

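With no replicate values, a motif share was held to the 95% interval of its main value, and a median or percentile counted as moved at any change in its second decimal. The number of members listed (43) and the median with members under 1 dropped (4.08) could not change. All 43 were already listed by exact symbol and none lay under 1, so no member was added or dropped. When members under a mean log2 CPM of 3 were dropped, 33 were left and their median was 4.23. The median percentile was 51.0 among protein-coding genes, and per length it was 45.5 with the coding length and 51.2 with no division. The strict GAS form was found in 14.7% of members (1.27% of listed genes), outside the interval. The ISRE share was 32.4% with the long form (0.917%), 55.9% with 1 to 3 bases between the words (7.48%) and 55.9% over the whole window (3.77%), all 3 inside the interval. The strict and long forms could only lower a share, and the other forms could only raise it. For the ISRE core the interval is wide (28.9 to 60.5%, 34 members), so a share inside it is not shown to be stable. No paired analysis was possible because the values used are means over all mice, with none per mouse. For the same reason the limma alternatives and the fits without each mouse were not run. Protein identity within families was not run either, since no protein table was used here. Unknown depth leaves the error of every level unstated.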
